A study of Mus musculus with 8 samples.

Results

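Fam43b, AB041806, 1700018B08Rik, Pla2g2c, Sigirr, Slc22a7, Aox4 and Zfp628, 8 of 26212 annotated mouse genes, lie at or near regions where earlier counts of these same libraries showed much more H3K4me3 in menin-null than in wt cells. The genes were chosen by those gains in tag counts, menin-null over wt, so the same values at their gained regions are given as a description, without a test, and the levels in the other kind of cell, the input, the surrounding sequence and the related genes show how the loci behave otherwise. The wt mouse embryonic stem cells (mESCs) were of the line TC-1 and the menin-null (Men1-KO) mESCs of the single line 3.2N, both on the 129S6/SvEvTac background, grown on irradiated feeder fibroblasts and freed of them before use. Pancreatic islet-like endocrine cells (PILECs) were differentiated in vitro from each line, and 1 H3K4me3 ChIP-Seq library and 1 input library were made from each of the 4 kinds of cells. With 1 library per condition and 1 menin-null line, a difference between lines and the effect of losing menin cannot be told apart.

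H3K4me3, trimethylation of lysine 4 of histone H3, marks the starts of active and poised genes, above all those in stretches rich in CpG dinucleotides. It is written by methyltransferase complexes of the COMPASS family, and menin is a subunit of the complexes that contain MLL1 or MLL2. Loss of the mark without menin is therefore the change usually looked for, and the loci described here moved the other way.

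The H3K4me3 libraries held 2432377 tags (wt mESCs), 3517028 (menin-null mESCs), 18773635 (wt PILECs) and 17682677 (menin-null PILECs), and levels are tags divided by the library's total and multiplied by 1000000 (RPM). Over exons 3 to 8 of Men1, input tags numbered 17 in wt mESCs, 22 in wt PILECs and 0 in both menin-null inputs, where a count of 0 allows up to 3 tags. Of 15 islet endocrine markers, 8 lay in enriched regions of PILECs, with a summed level within 1 kb of their starts of 106 RPM in wt and 111 RPM in menin-null PILECs, but Ins1, Ins2, Gcg and Iapp, which encode islet hormones, had 4 to 22 tags each there, and all 8 neural and all 7 fibroblast markers were in enriched regions. The summed levels in wt and menin-null PILECs were 91.4 and 78.3 RPM for the fibroblast markers, 148 and 134 RPM for the neural markers, 75.5 and 75.3 RPM for 8 ES cell markers and 16.8 and 23.9 RPM for 7 markers of liver and gut endoderm. Of the last, Foxa2 alone was 2-fold higher in menin-null PILECs, with 100 and 192 tags, as were 3.21% of all promoters with at least 10 tags. Sox17, with 26 and 22 tags, and Afp, with 11 and 7, were lower. Foxa1, with 126 and 135 tags, Cdx2, with 31 and 38, Hnf4a, with 14 and 18, and Alb, with 7 and 10, were higher. None of these was past 2-fold, and of the 7 Foxa1 and Foxa2 alone lay in enriched regions. Among ES cell markers, Pou5f1 had 69 and 43 tags and Nanog 55 and 27 in wt and menin-null PILECs, neither past 2-fold. Most of the ES cell sum lay at Sox2, Klf4 and Esrrb, with 503 and 531, 546 and 467, and 182 and 208 tags. In wt and menin-null mESCs the summed levels were 284 and 356 RPM for the ES cell markers and 116 and 147 RPM for the islet markers. They were 92.9 and 121 RPM for the neural, 67.0 and 77.9 RPM for the fibroblast and 39.5 and 32.7 RPM for the liver and gut markers. The part of such differences in the gains of either kind of cell was not tested. Tags that repeated the position and strand of another made up 4.15% of the menin-null mESC library and 11.3% to 11.4% of the other H3K4me3 libraries. A stretch of 200-bp windows with more H3K4me3 tags of both genotypes than the mean window was called an enriched region (Poisson p of at most 1e-05, at least 1000 bp long, at least 2 times the input), which gave 10330 regions in mESCs and 12945 in PILECs. A region or promoter was called gained when its log2 ratio, with 1 tag added to each count, was at least 1 and the 2 libraries held at least 10 tags. Ratios of single regions, promoters or windows below are of the counts as they are, unless said otherwise. Their exact 95% binomial intervals (Clopper-Pearson) cover counting error only. Medians over regions or promoters, ranks of gains, differences of ratios between mESCs and PILECs and values under other settings have 1 tag added to each count. Over all enriched regions the median log2 ratio was 0.26 in mESCs and -0.11 in PILECs, and dividing by tags in enriched regions in place of all tags lowered every mESC ratio by 0.29 and raised every PILEC ratio by 0.10.

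For each gene the region with the largest gain in the gene or its 20-kb flanks was taken as its leading region. Fam43b and AB041806 overlap on opposite strands and share 1 region, so there were 7. The 300 bases of each that held the most H3K4me3 tags, read from the mm9 genome on the plus strand and with CpG in capitals, are shown because these 7 stretches differ widely in CpG.
Fam43b/AB041806 chr4:137951301-137951600: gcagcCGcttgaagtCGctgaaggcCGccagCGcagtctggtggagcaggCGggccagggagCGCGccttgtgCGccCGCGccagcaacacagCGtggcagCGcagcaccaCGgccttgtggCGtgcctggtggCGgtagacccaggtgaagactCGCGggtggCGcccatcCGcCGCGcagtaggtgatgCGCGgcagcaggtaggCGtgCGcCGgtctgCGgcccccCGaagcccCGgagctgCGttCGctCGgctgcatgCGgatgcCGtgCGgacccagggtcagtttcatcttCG
1700018B08Rik chr8:124066001-124066300: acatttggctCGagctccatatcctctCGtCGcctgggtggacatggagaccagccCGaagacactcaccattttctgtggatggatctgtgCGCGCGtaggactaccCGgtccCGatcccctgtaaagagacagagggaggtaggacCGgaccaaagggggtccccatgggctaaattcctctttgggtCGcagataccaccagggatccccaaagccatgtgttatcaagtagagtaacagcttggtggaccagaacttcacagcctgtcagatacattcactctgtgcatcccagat
Pla2g2c chr4:138262901-138263200: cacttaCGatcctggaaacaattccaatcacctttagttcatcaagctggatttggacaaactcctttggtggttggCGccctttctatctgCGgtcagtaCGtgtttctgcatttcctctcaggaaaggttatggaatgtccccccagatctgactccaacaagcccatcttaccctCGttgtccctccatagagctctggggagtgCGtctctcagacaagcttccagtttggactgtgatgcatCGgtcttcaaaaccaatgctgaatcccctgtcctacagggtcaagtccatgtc
Slc22a7 chr17:46574151-46574450: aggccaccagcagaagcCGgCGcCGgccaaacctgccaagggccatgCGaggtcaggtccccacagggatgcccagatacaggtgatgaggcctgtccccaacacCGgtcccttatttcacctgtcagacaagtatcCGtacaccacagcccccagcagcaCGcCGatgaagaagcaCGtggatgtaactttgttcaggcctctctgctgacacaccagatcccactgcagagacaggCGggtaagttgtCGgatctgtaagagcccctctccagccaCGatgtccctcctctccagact
Sigirr chr7:148282351-148282650: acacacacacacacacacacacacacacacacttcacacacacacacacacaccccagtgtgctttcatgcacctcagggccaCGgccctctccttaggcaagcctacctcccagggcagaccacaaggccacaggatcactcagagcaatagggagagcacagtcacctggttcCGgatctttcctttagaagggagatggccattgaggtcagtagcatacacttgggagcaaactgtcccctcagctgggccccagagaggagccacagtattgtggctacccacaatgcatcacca
Aox4 chr1:58272651-58272950: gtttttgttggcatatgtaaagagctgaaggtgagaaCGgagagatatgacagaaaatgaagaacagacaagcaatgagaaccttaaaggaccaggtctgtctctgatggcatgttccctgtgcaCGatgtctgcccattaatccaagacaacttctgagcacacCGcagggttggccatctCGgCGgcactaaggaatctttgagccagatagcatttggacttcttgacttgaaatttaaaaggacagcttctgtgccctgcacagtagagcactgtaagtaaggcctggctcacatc
Zfp628 chr7:4863651-4863950: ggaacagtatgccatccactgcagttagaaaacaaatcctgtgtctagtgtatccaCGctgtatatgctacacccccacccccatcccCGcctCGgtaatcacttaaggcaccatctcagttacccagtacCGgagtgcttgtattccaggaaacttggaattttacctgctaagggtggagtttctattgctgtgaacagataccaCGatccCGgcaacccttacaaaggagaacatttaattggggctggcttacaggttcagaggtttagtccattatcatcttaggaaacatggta

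The Fam43b/AB041806 stretch holds 36 CpG in 300 bases and lies inside the only exon of Fam43b, a gene of little-studied function. The other stretches hold 2 to 12. That of 1700018B08Rik lies just upstream of the gene's start, and that of Slc22a7 runs over the first exons and introns of the gene. The stretches of Pla2g2c and Zfp628 lie between genes, and those of Sigirr and Aox4 within introns. The Sigirr stretch opens inside a run of 36 bases of repeated ac, the longest dinucleotide run among the 7 regions, where the others had at most 8 bases.

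**Figure D1:**
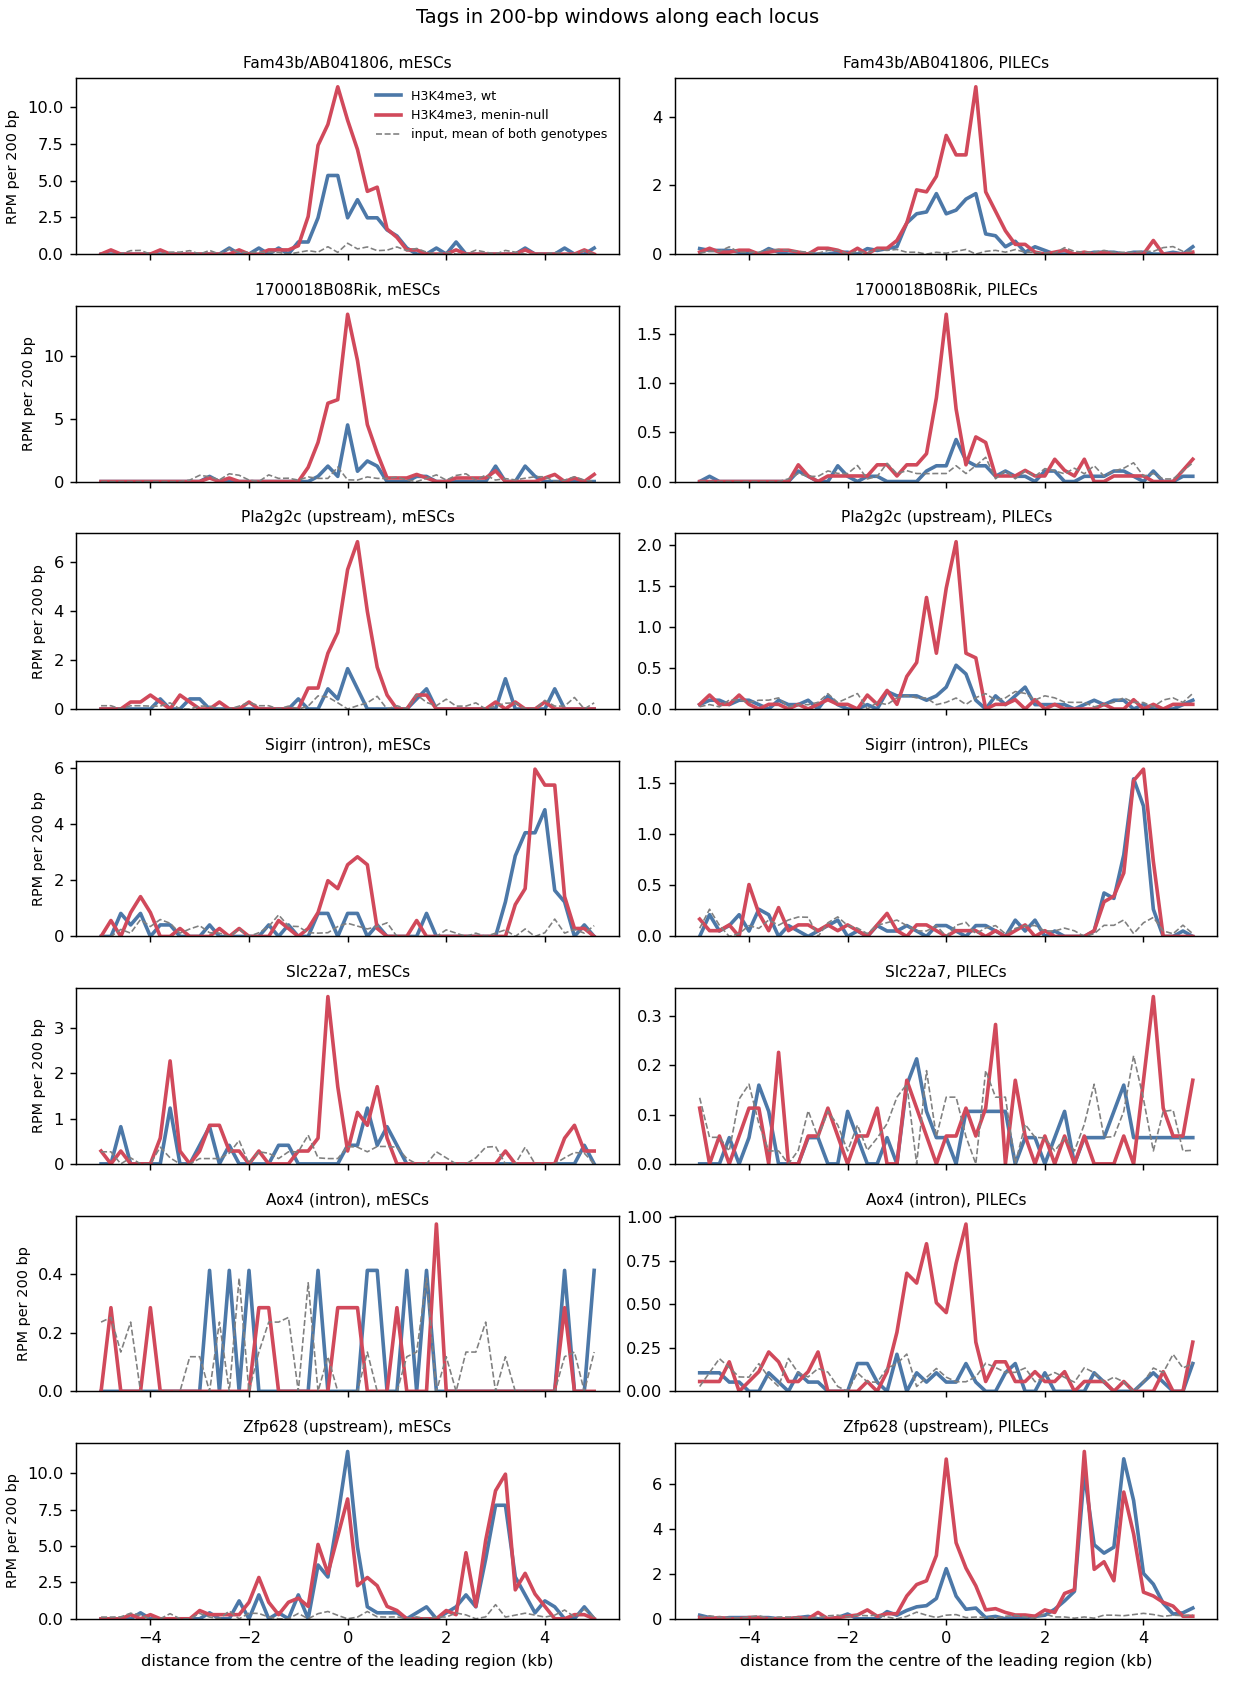
H3K4me3 in wt (blue) and menin-null (red) cells and mean input (dashed) in 200-bp windows, in RPM, within 5 kb of the centre of each leading region, mESCs left and PILECs right, each panel on its own scale. The separate peak right of centre at Sigirr and at Zfp628 is the gene's own start, where the lines of both genotypes lie close together.

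Among the regions in the 8 genes and their 20-kb flanks, 5 of 10 mESC regions were called gained, where 0.726% of all mESC regions were, and 5 of 8 PILEC regions, where 0.232% of all PILEC regions were. Since gains chose the genes, nothing is read from these counts.

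Gains in both kinds of cells were found at 3 loci. The region shared by Fam43b and AB041806 lies at chr4:137950801-137952400, over the exon of Fam43b (minus strand, chr4:137950007-137952373) and both exons of AB041806 (plus strand, chr4:137951113-137953629). It held 63 tags in wt and 198 in menin-null mESCs, and 201 in wt and 389 in menin-null PILECs. These were levels of 25.9 and 56.3 RPM in mESCs and of 10.7 and 22.0 RPM in PILECs, so within each kind of cell the menin-null library was the higher. The log2 ratio was 1.12 (95% interval 0.70 to 1.55) in mESCs and 1.04 (0.79 to 1.29) in PILECs. Both lie close to the 2-fold limit, and with 1 tag added, as for the call, they were 1.10 and 1.04. The call was lost in mESCs when tags in enriched regions set the scale (0.82, with 1 tag added). In PILECs it was lost when tags at the same position were counted once (0.91) or tag ends were not moved (0.98). Input at the region itself was 16 and 7 tags in mESCs and 6 and 8 in PILECs. The menin-null level was above that of 71.2% of mESC regions and of 35.1% of PILEC regions. ChIP tags carry no gene strand, so the gain cannot be assigned to Fam43b or to AB041806.

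1700018B08Rik, a gene known by its cDNA name, had its gain at its start, at chr8:124065601-124066800 (gene on the minus strand, chr8:124054684-124065854). The region covers the first exon and the sequence upstream of it, and also lies within an intron of the read-through gene Gm20388. It held 25 tags in wt and 155 in menin-null mESCs, or 10.3 and 44.1 RPM, a log2 ratio of 2.10 (1.48 to 2.77). In PILECs it held 20 and 71 tags, or 1.07 and 4.02 RPM, a log2 ratio of 1.91 (1.18 to 2.71). The wt level was above that of 4.76% of mESC regions, and the menin-null level above that of 55.7%. In PILECs the wt level was above that of 0.02% of regions, and the menin-null level above that of 3.48%. Chromosome 8 as a whole had relatively more input in menin-null mESCs, by 0.20 on the log2 scale over the median autosome, and by 0.03 in PILECs, and the region's own input was 8 and 11 tags in mESCs and 12 and 11 in PILECs.

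The region linked to Pla2g2c, which encodes a secreted phospholipase A2, lies at chr4:138262401-138263400, between genes. It is 17307 bp upstream of the start of Pla2g2c (plus strand, chr4:138280707-138302047) and 2352 bp beyond the 3' end of Ubxn10, so that the name gives only the nearest start. It held 9 tags in wt and 77 in menin-null mESCs, or 3.70 and 21.9 RPM, the largest gain of all mESC regions (log2 ratio 2.56, 1.57 to 3.75). In PILECs it held 28 and 110 tags, or 1.49 and 6.22 RPM, a log2 ratio of 2.06 (1.45 to 2.71). The menin-null level was above that of 20.3% of mESC regions and of 7.76% of PILEC regions. Input tags numbered 4 to 9 in each of the 4 libraries. At the start of Pla2g2c itself, which overlaps that of Ubxn10, 13 and 33 tags in mESCs and 22 and 34 in PILECs gave intervals that included 0 (log2 ratios of 0.81, -0.15 to 1.86, and 0.71, -0.10 to 1.56).

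Sigirr and Slc22a7 were picked for mESCs. The region in the first intron of Sigirr, which encodes a receptor of the interleukin-1 receptor family that restrains signalling by its relatives, lies at chr7:148281801-148282800, 3645 bp inside the gene (minus strand, chr7:148277074-148286445). It held 6 tags in wt and 41 in menin-null mESCs, or 2.47 and 11.7 RPM (log2 ratio 2.24, 1.00 to 3.77). The wt tags were at the level of the input, 1.16 times it (0.34 to 3.66), and the menin-null tags were 10.9 times the input (3.95 to 41.9). In menin-null mESCs 31 of the 41 tags lay on the plus strand and 10 on the minus strand, and all had distinct positions. The menin-null level was above that of 5.54% of mESC regions. In PILECs the region held 5 tags in each genotype, with 5 and 10 input tags, so no enrichment was detectable there. The start of Sigirr, 47 and 76 tags in mESCs and 89 and 93 in PILECs, had log2 ratios of 0.16 (-0.38 to 0.72) and 0.15 (-0.29 to 0.59).

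Slc22a7 encodes an organic anion transporter of liver and kidney. Its region, chr17:46574001-46575200, overlaps exons 1 to 3 of 10 and holds an internal start of the gene (minus strand, chr17:46569134-46575426). It held 6 tags in wt and 31 in menin-null mESCs, or 2.47 and 8.81 RPM (log2 ratio 1.84, 0.55 to 3.39), and 8 tags in each genotype of PILECs, with 7 and 14 input tags. Over input this was 4.72 times (2.04 to 12.7) in menin-null mESCs. The menin-null level was the lowest of the 5 regions gained in mESCs, above that of 2.52% of all mESC regions. It rests on few tags, and in PILECs no enrichment over the input was detectable.

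Aox4 and Zfp628 were picked for PILECs. The region of Aox4, an aldehyde oxidase gene, lies 4706 bp downstream of the nearest annotated start of the gene (58267295, gene on the plus strand, chr1:58267241-58325441), at chr1:58272001-58273000. It falls in the second intron of the full-length transcript, and its start overlaps the last exon of a short non-coding transcript. It held 8 tags in wt and 62 in menin-null PILECs, or 0.426 and 3.51 RPM, the largest gain of all PILEC regions (log2 ratio 3.04, 1.97 to 4.31). The wt tags equalled the input, 8 tags, and the menin-null tags were 9.08 times the input (4.15 to 23.5). In mESCs it held 1 and 3 tags, no more than the limit of 3 tags that a count of 0 allows, and no ratio is given. In PILECs the menin-null level at the region was above that of 2.50% of all regions. The start of Aox4 had 15 and 14 tags in PILECs.

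The region of Zfp628, which encodes a zinc finger protein, lies 2219 bp upstream of the gene's start (plus strand, chr7:4866819-4873605), at chr7:4863001-4864600. A shorter stretch of it, chr7:4863001-4864400, was also called an enriched region of mESCs, from the tags of both genotypes together. The whole region held 76 tags in wt and 107 in menin-null mESCs, or 31.2 and 30.4 RPM (log2 ratio -0.04, -0.48 to 0.41). In PILECs it held 119 tags in wt and 376 in menin-null cells, or 6.34 and 21.3 RPM (log2 ratio 1.75, 1.45 to 2.06). That menin-null level was above that of 33.6% of PILEC regions. The mESC levels were above those of 44.8% (wt) and 34.2% (menin-null) of mESC regions. Between mESCs and PILECs the log2 change in level was thus -2.30 (-2.73 to -1.87) in wt cells and -0.52 (-0.83 to -0.19) in menin-null cells. The start of Zfp628 did not share this pattern: its level was close in wt mESCs and wt PILECs (0.15, -0.21 to 0.52), and in PILECs it had 606 tags in wt and 482 in menin-null cells, a log2 ratio of -0.24 (-0.42 to -0.07).

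**Figure D2:**
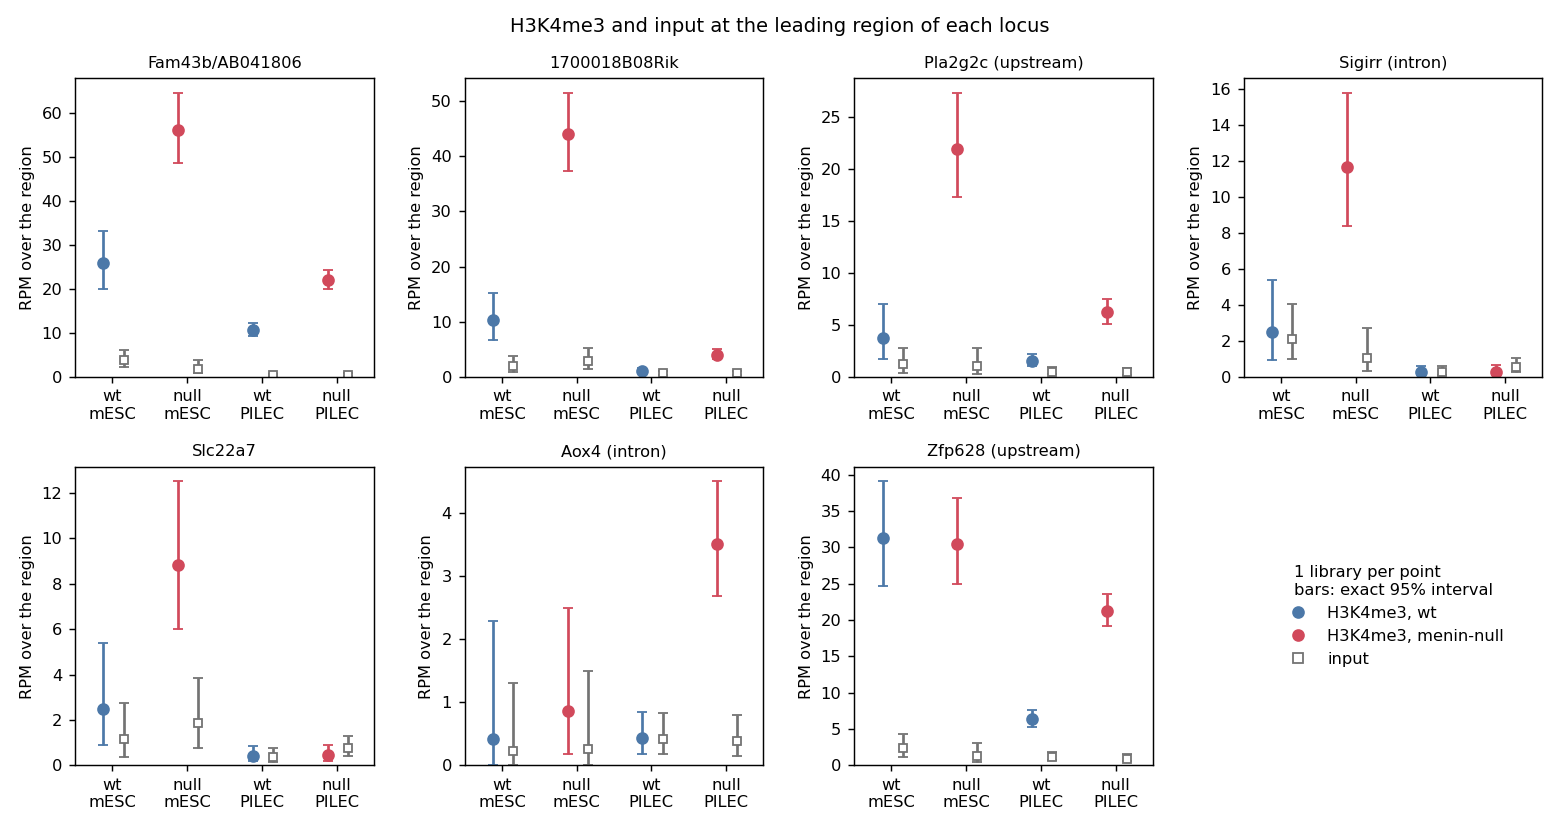
Level of H3K4me3 (filled) and of input (open) over the leading region of each locus, in RPM, by library, each with its exact 95% interval and each panel on its own linear scale from 0. Sigirr and Slc22a7 are at the input level in both PILEC libraries, and Aox4 in all libraries but that of menin-null PILECs. Zfp628 is higher in both mESC libraries than in either PILEC library.

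Between wt mESCs and wt PILECs, the level in RPM was at least 2-fold lower in PILECs at 6 of the 7 leading regions, where it was at 12% of all regions of either kind of cell, with 9.77% higher. The wt counts were the denominators of the gains that chose the genes, so these values are a description too. The log2 change in RPM was -1.27 (-1.69 to -0.84) at Fam43b/AB041806, -1.31 (-2.44 to -0.04) at Pla2g2c and -3.27 (-4.20 to -2.36) at 1700018B08Rik. In menin-null cells it was -1.36 (-1.61 to -1.10), -1.82 (-2.25 to -1.38) and -3.46 (-3.88 to -3.04) at the same loci. The input in RPM was lower in PILECs as well, in wt cells 3.77 and 0.316 at Fam43b/AB041806, 1.18 and 0.473 at Pla2g2c and 2.12 and 0.263 at Sigirr. At Fam43b/AB041806 wt H3K4me3 was 6.88 times the input (3.92 to 12.8) in mESCs and 33.9 times (15.3 to 93.6) in PILECs, and menin-null H3K4me3 30.1 times (14.3 to 75.9) and 49.8 times. At Pla2g2c the wt values were 3.14 (0.95 to 11.9) and 3.15 (1.45 to 7.59), and the intervals of the menin-null values ran from 7.69 to 77.1 and from 6.91 to 33.5. At 1700018B08Rik the wt values were 5.46 (2.39 to 14.0) and 1.69 (0.79 to 3.79), and the intervals of the menin-null values ran from 8.16 to 30.7 and from 3.48 to 13.8. Wt H3K4me3 at Sigirr and Slc22a7 was near the input in both kinds of cells, 1.16 and 1.01 times it at Sigirr and 2.10 and 1.16 times it at Slc22a7, with intervals that included 1. Within 1 kb of the start, 6 of the 8 genes were 2-fold lower in RPM in wt PILECs, where 19.6% of promoters were, and Aox4 and Zfp628 were not.

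At Fam43b/AB041806, 1700018B08Rik and Pla2g2c the difference of the menin-null over wt log2 ratios, mESCs less PILECs, was 0.07 (-0.41 to 0.54), 0.19 (-0.73 to 1.11) and 0.41 (-0.71 to 1.53), beside a median of 0.34 over all regions. All such differences are of ratios with 1 tag added to each count, at Pla2g2c 2.43 and 2.02, and so depart from those of the ratios printed above.

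At Sigirr and Slc22a7 that difference was 1.97 (-0.03 to 3.97) and 1.57 (-0.21 to 3.35). The intervals, approximate and set by the few tags, include 0, although these genes were picked in mESCs. At Zfp628 it was -1.78 (-2.30 to -1.27), and with the median of all regions taken off it was -2.12 (-2.64 to -1.60). With no median taken off, an interval wholly below 0 was found at 1.54% of all regions, and one wholly above 0 at 35.2%. Since its PILEC gain chose the Zfp628 region, nothing is read from these shares.

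**Figure D3:**
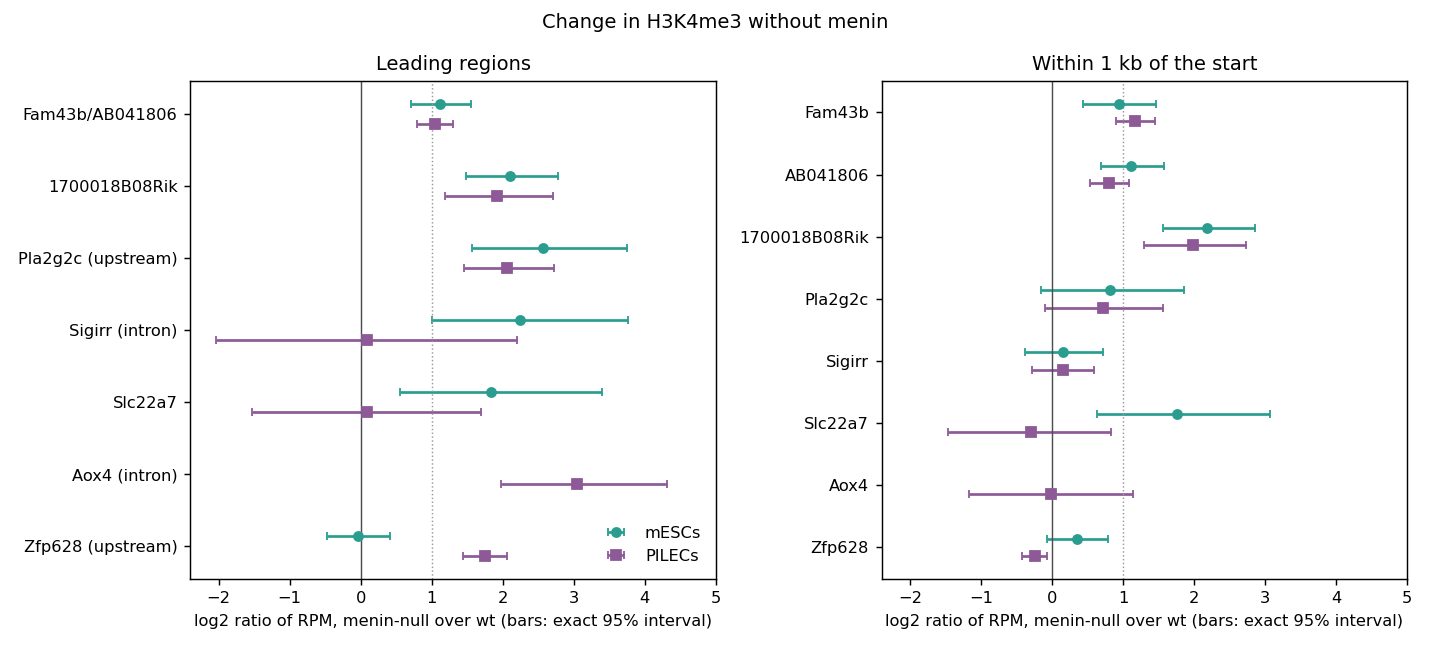
Log2 ratio of H3K4me3, menin-null over wt, in mESCs (circles) and PILECs (squares) with exact 95% intervals, at the leading regions (left) and within 1 kb of the starts (right). The dotted line is 2-fold, and points with at most 3 tags in both libraries are not drawn. Fam43b/AB041806, 1700018B08Rik and the Pla2g2c region lie right of 0 in both kinds of cells.

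Of all 75 regions gained in mESCs, 7 (9.33%) were also gained in PILECs, and 3 of these 7 were the loci described here. Over all mESC regions 0.504% were gained in PILECs. In the other direction, 24 of the 30 regions gained in PILECs had the tags to be judged in mESCs, and 3 of them (12.5%) were gained there, the same 3 loci, where 0.74% of all PILEC regions were. A gain in the other kind of cell needed at least 10 tags there, but no enriched region there. Since gains in either kind of cell chose the 3 loci, nothing is read from these shares.

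In mESCs, 7 of the 8 promoters (within 1 kb of the start) had the minimum of tags and 3 of these were called gained, where 1.28% of all such promoters were. Aox4, with 1 and 2 tags, could not be judged there. Those called gained were AB041806 (58 and 182 tags), 1700018B08Rik (25 and 164) and Slc22a7 (8 and 39). The window of Slc22a7 was at an internal start, the one with the most tags. With the 5' end of each gene as its start 2 were called gained, and Slc22a7 was not. Fam43b, whose window overlaps that of AB041806, had 45 and 125 tags (log2 ratio 0.94, 0.44 to 1.47). In PILECs, 2 of 8 were called gained, where 3.21% were, Fam43b (163 and 346 tags) and 1700018B08Rik (22 and 82). AB041806 had 183 and 301 tags there, a log2 ratio of 0.80 (0.53 to 1.08). The starts of Pla2g2c, Sigirr and Zfp628 were called in neither kind of cell, and that of Aox4 was not called in PILECs. The windows of Fam43b, AB041806, 1700018B08Rik and Slc22a7 overlap the regions whose gains chose the genes. Nothing is therefore read from these counts of promoters.

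Of the 10 other genes with a start in the flanks, 5 had the minimum of tags in mESCs and 1 of these was called gained, where 1.28% of promoters were, and 1 of 10 was called gained in PILECs, where 3.21% were. In both cases it was 1110003O08Rik, beside 1700018B08Rik. It had 2 and 12 tags in mESCs and 8 and 16 in PILECs, log2 ratios of 2.05 (-0.11 to 5.25) and 1.09 (-0.22 to 2.52), both intervals including 0. The input held 15 and 8 tags in mESCs and 14 and 31 in PILECs, so in RPM the H3K4me3 of PILECs was below the input in both genotypes. Pkp3 and Ano9, beside Sigirr, had 14 and 32 tags and 37 and 48 tags in mESCs, with intervals that included 0. Nat14, beside Zfp628, had 178 and 175 tags in PILECs. H3K4me3 outside the enriched regions and starts, summed over each gene and its flanks, was called gained at 0 of 8 genes in mESCs, where 0.453% of all genes were, and at 0 of 8 in PILECs, where 0.093% were. The highest was that of Pla2g2c in mESCs, 23 and 65 tags, a log2 ratio of 0.97 (0.26 to 1.72). Fam43b (0.80, 0.11 to 1.53) and AB041806 (0.82, 0.14 to 1.55) were also higher in menin-null mESCs, and Aox4 was lower (-0.82, -1.40 to -0.26). In PILECs Aox4 (0.36, 0.16 to 0.56) and Zfp628 (0.33, 0.07 to 0.59) had intervals above 0.

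Input over the same genes and flanks was changed 2-fold at 0 of 8 genes in mESCs, where 0.382% of all genes were, and at 0 of 8 in PILECs, where 0.0773% were. Its log2 ratios ran from -0.30 at Fam43b to 0.16 at Zfp628 in mESCs and from -0.27 at Fam43b to 0.16 at 1700018B08Rik in PILECs. On chromosome 4 the Pla2g2c region lies 310 kb from that of Fam43b. Input was summed over 509 kb that hold both, from the flank of Fam43b to that of Pla2g5, a gene described below. The log2 ratios of this input were 0.00 (-0.10 to 0.10) in mESCs and -0.01 (-0.07 to 0.05) in PILECs. Between the Fam43b and Pla2g2c regions lie mESC regions at the starts of Mul1 and Camk2n1. Their log2 ratios were 0.23 (-0.14 to 0.60) and 0.85 (0.54 to 1.17) in mESCs. In PILECs they were -0.07 (-0.22 to 0.08) and -0.01 (-0.13 to 0.11).

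Related genes were compared by their promoters, of which 1.28% over all genes with the minimum of tags were gained in mESCs and 3.21% in PILECs. Of 9 genes of the secreted phospholipase group 6 had the minimum of tags in mESCs, and 1 of these was gained, Pla2g5, with 2 tags in wt and 40 in menin-null cells, a log2 ratio of 3.79 (1.84 to 6.88) and the largest gain among 16135 promoters. Pla2g5 lay outside the enriched regions of both kinds of cells, and its 2 wt tags are within the 3 tags that a count of 0 allows. Its start lies on chromosome 4, 156 kb beyond the Pla2g2c region, and in PILECs it held 16 and 8 tags, fewer than the 24 input tags of each genotype. Pla2g2a, Pla2g2d and Pla2g2f, between them, had at most 2 tags in either mESC library. In PILECs 1 of the 9 was gained, Pla2g2e, with 7 and 16 tags beside 12 and 27 input tags. The group's median log2 ratio was 0.37 in mESCs and 0.17 in PILECs, where the medians over all promoters were 0.21 and -0.06.

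Of 18 organic anion and cation transporters, which move drugs and metabolites across membranes, 9 had the minimum of tags in mESCs. Slc22a7 alone of these was called gained, and only at its internal start. The group's median log2 ratio was 0.34 in mESCs and 0.07 in PILECs. Of 10 genes of the interleukin-1 receptor family, 5 had the minimum of tags in mESCs and 10 in PILECs, and 0 of these were called gained. In PILECs 1 was 2-fold lower, where 2.44% of promoters were, Il1r2, which encodes a decoy receptor and had 34 and 13 tags (log2 ratio -1.30, -2.35 to -0.34) beside 19 and 11 input tags, outside the enriched regions. In mESCs 1 was 2-fold lower, where 1.99% of promoters were, Il1rl2, on 6 and 4 tags beside 3 and 2 input tags. Of 6 aldehyde oxidase and xanthine dehydrogenase genes 5 were placed. In mESCs 1 of these had the minimum of tags, too few to judge the group, and in PILECs 0 of 5 were called gained. Fam43a, the paralog of Fam43b, had 78 and 146 tags in mESCs and 453 and 463 in PILECs, log2 ratios of 0.37 (-0.03 to 0.79) and 0.12 (-0.07 to 0.31).

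**Figure D4:**
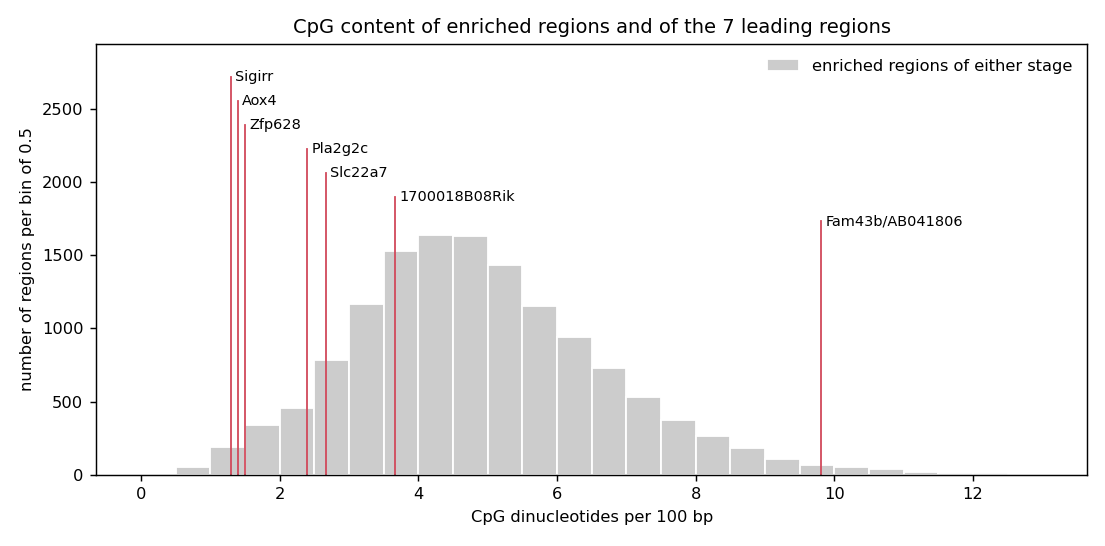
CpG dinucleotides per 100 bp in the 13732 enriched regions of either kind of cell (grey bars, number of regions per bin) and in the 7 leading regions (red lines). Fam43b/AB041806 lies in the upper tail and 5 others lie below the lower quartile.

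The sequences shown above carried over to the whole regions. CpG per 100 bp was 9.81 in the Fam43b/AB041806 region, above 98.8% of all regions, and 3.67 at 1700018B08Rik, near the lower quartile of 3.63. It was 2.67 at Slc22a7, 2.40 at Pla2g2c, 1.5 at Zfp628, 1.40 at Aox4 and 1.30 at Sigirr, below which lay 9.33%, 6.98%, 1.82%, 1.60% and 1.27% of all regions. Pla2g2c, Sigirr, Aox4 and Zfp628, 4 of the 7 regions, lie over 1 kb from every annotated start, as did 11.4% of all regions. Such regions had a median of 3.90 CpG per 100 bp, and 22.1%, 5.09%, 6.55% and 7.51% of them had less than the 4 named here, in that order. Of the regions over 1 kb from a start, 3.44% had a 2-fold higher level in menin-null mESCs and 2.04% in menin-null PILECs, against 0.822% and 0.280% of regions at starts. They also held fewer tags, with medians of 75 and 201 in mESCs and of 247 and 1162 in PILECs, and the part of this in their share of gains was not tested.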

How the data were processed

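The 8 libraries, 1 for each mark or input of each kind of cell, were used as deposited. The authors aligned 36-bp reads to mm9, kept those with a unique location, and deposited 1 line per tag with its position and an unnamed whole-number score from 4 to 119 (not used). The deposited values are tag positions, without normalization. The aligner is not given in the sources used here. Tags were moved to the middle of a 250-bp fragment, counted, and divided by the tags of the library (2432377 to 18773635 for H3K4me3). Windows passed with at least 7 tags (mESCs) or 14 tags (PILECs) of both genotypes and were joined over gaps of up to 400 bp. Genes came from GENCODE vM1 on the mm9 genome, and a gene with several starts was given the one with the most H3K4me3 tags. Tools were Python 3.11.15, numpy 2.4.6, pandas 2.3.3, scipy 1.17.1 and matplotlib 3.10.9. The scripts were tested on simulated data. Genes named are the 8, those with a start within 20 kb, and called relatives, of which 1 result is not reported here. The 8 genes, the lists and the tests were chosen with earlier results of these data known. Mul1, Camk2n1, Fam43a, Pla2g2a, Pla2g2d, Pla2g2f, Foxa2 and the 509 kb of chromosome 4 were added once their values were known. Sox17, Afp, Foxa1, Cdx2, Hnf4a, Alb, Pou5f1, Nanog, Sox2, Klf4 and Esrrb were added likewise.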

Additional observations from a re-analysis of the deposited data

Results flagged for a closer look

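The region upstream of Zfp628 differed between the kinds of cells. The log2 ratio of menin-null to wt was lower in mESCs than in PILECs, a difference of -1.78, with an approximate interval from the counts of -2.30 to -1.27, with 76 and 107 tags in mESCs and 119 and 376 in PILECs. With 1 library per condition the interval covers counting error only, and the region was picked for its PILEC gain.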

How the results depend on the processing

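Of 172 values recomputed under another setting, 165 stayed within their interval or within 1.5 times the count, 7 moved and 0 reversed. Reversed means a change of sign where the interval had left out 0. Where intervals include 0, signs did change. The difference between mESCs and PILECs, 0.07 at Fam43b/AB041806 and 0.19 at 1700018B08Rik, was -0.32 and -0.20 with scaling by tags in enriched regions. With the input log2 ratio within 5 kb taken off, 5 member promoters in mESCs were gained in place of 3, and the Fam43b/AB041806 region had 1.74 in mESCs and 1.32 in PILECs. In PILECs, 3 regions were gained in place of 5 when the window threshold was a Poisson p of 1e-07, and likewise 3 when tags at the same position were counted once. In PILECs, 1 promoter was gained in place of 2 at 3-fold, and likewise 1 within 2 kb of the start. The value at Sigirr in PILECs, 0.09, was -0.59 with unmoved tag ends. Log2 ratios with 1 tag added at 1700018B08Rik, Pla2g2c, Aox4 and Zfp628 in PILECs ran from 1.69 to 2.99 over all settings, and those at 1700018B08Rik, Pla2g2c, Sigirr and Slc22a7 in mESCs from 1.20 to 2.83. No paired analysis was possible because each condition had 1 library. Few tags limit Sigirr, Slc22a7 and Aox4 most.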
